A study of Mus musculus with 73 samples.

Results

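The 30 genes described here encode the enzymes that make cholesterol from acetyl-CoA, the proteins that control the transcription factor SREBP2, and a carrier and an esterifying enzyme that handle the product. They were chosen by name from a list ordered by pathway step, out of 39179 genes in each of 3 tables of RPKM (reads per kilobase of gene length, scaled to sequencing depth). The list was chosen with earlier results of these data known, which limits every comparison of members with all genes. By name 29 of the 30 genes were found in every table. Msmo1, listed there under its older symbol Sc4mol, was matched by its gene ID. The samples were brain cells positive for CD11b and CD45, isolated by fluorescence-activated sorting from C57BL/6 mice and profiled by RNA sequencing. At 4 months of age there were 7 WT libraries, 9 of 5xFAD, 4 of 5xFAD;CD33-/-, 4 of 5xFAD;TREM2-/- and 2 of 5xFAD;CD33-/-;TREM2-/-, called the double knockout below. At 8 months 11 libraries of 5xFAD and 12 of 5xFAD;CD33-/- formed the first table, and 6 of WT, 10 of 5xFAD and 8 of 5xFAD;TREM2-/- the second. All CD33 and TREM2 knockout libraries, here called CD33 knockouts and TREM2 knockouts, therefore also carry the 5xFAD transgenes, and knockouts without amyloid are not analysed here. 5xFAD is an amyloid model of Alzheimer's disease whose human transgenes are driven in neurons by the Thy1 promoter. CD33 is an inhibitory receptor that binds sialic acid, and TREM2 is a receptor of microglia for lipids and lipoproteins.

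Cells make cholesterol by joining acetyl-CoA into mevalonate, turning mevalonate into isoprenoids, joining those into squalene, closing squalene into lanosterol and trimming lanosterol to cholesterol. The genes of this route are classical targets of SREBP2, a membrane-bound factor that SCAP escorts from the endoplasmic reticulum to the Golgi, where the proteases encoded by Mbtps1 and Mbtps2 release it; INSIG proteins hold the complex back when sterols are plentiful. Microglia also take up cholesterol from myelin and debris, store it as esters and export it to lipoproteins.

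Reads per library, recovered from the RPKM, ran from 21188034 to 79654244. Trem2 lay between 13.67 and 36.32 RPKM in the libraries labelled TREM2 or double knockout, against 627.5 to 967.8 in the 5xFAD libraries that accompany the TREM2 knockouts at 8 months and 649.8 to 875.4 at 4 months. Cd33 was at most 0.2054 RPKM in the CD33 knockouts at 4 months, against 115.2 to 151.7 in 5xFAD, but replicate 7 of the CD33 knockouts at 8 months held 19.14 and replicate 1 of the double knockouts held 14.02. Microglial markers were abundant: at 8 months Csf1r averaged 3190 RPKM in WT, 1995 in 5xFAD and 2017 in TREM2 knockouts, and Cx3cr1 averaged 2035, 1077 and 1171. Of 7 neuronal markers, 1 passed the filter on low values in the 8-month table with WT: Stmn2 averaged 2.424 RPKM in WT, 5.684 in 5xFAD and 7.034 in TREM2 knockouts, and was called higher in 5xFAD (1.08). Endothelial transcripts were present and moved with genotype, and their values stand beside the results they move with. Nothing in the labels says that each library is a separate animal, so the p-values measure the spread between these libraries.

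Promoters are shown first for the 6 genes with a sequence entry that had the smallest p between 5xFAD and WT at 8 months, because these genes carry the main difference. Each is read 5′ to 3′ on the gene's strand, from 250 bases before to 50 bases after a start site, from RefSeq on GRCm38.p6. The regions are chr3:89454291-89454590 for Pmvk, chr5:4104648-4104947 for Cyp51, chr15:82147019-82147318 for Srebf2, chr7:143822917-143823216 for Dhcr7, chr13:119690101-119690400 for Hmgcs1 and chr9:42264251-42264550 for Sc5d. Cyp51 and Sc5d lie on the minus strand and the other 4 on the plus strand. Pmvk has 2 annotated starts and Dhcr7 has 3, of which the first is shown. Capitals mark 4 motifs on either strand. The sterol regulatory element was searched as TCACNCCAC. The CCAAT box was searched by the letters of its name. The GC box was searched as GGGCGG. The E-box was searched as CACGTG.
Pmvk: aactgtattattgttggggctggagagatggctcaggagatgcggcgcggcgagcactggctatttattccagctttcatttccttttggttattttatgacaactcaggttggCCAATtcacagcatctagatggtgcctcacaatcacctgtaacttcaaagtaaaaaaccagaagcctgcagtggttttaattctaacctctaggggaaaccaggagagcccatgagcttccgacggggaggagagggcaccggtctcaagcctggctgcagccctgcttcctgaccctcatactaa
Cyp51: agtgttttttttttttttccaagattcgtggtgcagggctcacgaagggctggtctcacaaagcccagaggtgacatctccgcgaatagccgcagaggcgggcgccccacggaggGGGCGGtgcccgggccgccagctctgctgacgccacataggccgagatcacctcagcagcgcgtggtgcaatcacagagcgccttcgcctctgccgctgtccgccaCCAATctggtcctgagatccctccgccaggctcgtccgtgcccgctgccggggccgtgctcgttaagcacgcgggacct
Srebf2: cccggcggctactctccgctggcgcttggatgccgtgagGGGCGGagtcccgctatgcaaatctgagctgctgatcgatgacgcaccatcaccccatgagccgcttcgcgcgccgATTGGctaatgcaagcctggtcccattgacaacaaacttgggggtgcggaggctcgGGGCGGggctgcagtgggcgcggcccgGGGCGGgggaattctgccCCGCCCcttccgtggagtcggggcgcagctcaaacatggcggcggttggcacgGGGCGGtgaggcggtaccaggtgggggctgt
Dhcr7: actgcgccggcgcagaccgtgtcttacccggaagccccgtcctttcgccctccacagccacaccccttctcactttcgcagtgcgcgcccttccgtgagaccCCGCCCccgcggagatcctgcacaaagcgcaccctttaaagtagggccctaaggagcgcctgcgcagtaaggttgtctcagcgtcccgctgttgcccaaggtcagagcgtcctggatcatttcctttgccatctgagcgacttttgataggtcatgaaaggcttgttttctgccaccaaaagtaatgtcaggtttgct
Hmgcs1: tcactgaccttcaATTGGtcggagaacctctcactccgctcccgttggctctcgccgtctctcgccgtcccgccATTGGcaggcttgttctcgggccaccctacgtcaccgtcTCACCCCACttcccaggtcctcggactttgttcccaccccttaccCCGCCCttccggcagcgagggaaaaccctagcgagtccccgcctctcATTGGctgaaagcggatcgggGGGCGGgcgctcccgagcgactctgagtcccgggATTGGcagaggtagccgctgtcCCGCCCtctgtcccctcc
Sc5d: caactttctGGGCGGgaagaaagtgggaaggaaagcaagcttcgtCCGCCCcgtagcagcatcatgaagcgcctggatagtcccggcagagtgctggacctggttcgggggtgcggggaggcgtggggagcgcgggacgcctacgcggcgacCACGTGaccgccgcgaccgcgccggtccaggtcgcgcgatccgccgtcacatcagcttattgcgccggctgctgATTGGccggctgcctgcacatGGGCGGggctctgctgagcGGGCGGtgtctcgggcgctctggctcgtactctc

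Of the 30 genes, 26 had a promoter entry, and Fdps, Sqle, Fdft1 and Stard4 are named only. A CCAAT box stood in at least 1 window of 22 of the 26 genes (84.6%), against 41.1% of all 27025 genes in the table and 37.4% of its 32851 windows. The GC box stood in 23 of 26 (88.5%), against 38.2% of all genes. The sterol regulatory element TCACNCCAC was found in 1 of 26 (3.85%), in Hmgcs1, against 1.44% of all genes, and its shorter form CACNCCAC, which overlaps it, in Acat2, Hmgcs1 and Insig1 (11.5%, against 7.12%). The E-box stood in 5 of 26 (19.2%, against 8.09%). Among the genes that were higher in 5xFAD than in WT at 8 months and have an entry, 11 of 11 held a CCAAT box, and among the other members 11 of 15 did. In the same split the GC box stood in 10 of 11 and 13 of 15, the E-box in 4 of 11 and 1 of 15, and the sterol regulatory element in 1 of 11 and 0 of 15. These are matches of letters in fixed windows, so elements that differ from the searched letters are not counted. The 27025 genes were not limited to those tested in these samples.

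At 8 months, cholesterol synthesis genes were higher in sorted 5xFAD cells than in sorted WT cells and lower again in TREM2 knockouts. This held at nearly every stage of the route. Of the 29 members tested, 15 rose and 4 fell in 5xFAD against WT, where 28.3% of all 12622 genes tested rose and 30.5% fell. In TREM2 knockouts against 5xFAD, 13 of 29 members fell and 2 rose, against 10.3% and 7.04% of all genes. The median log2 change of the members was 0.24 in the first comparison, beside -0.02 for all genes, and -0.16 in the second, beside 0.02. These comparisons share the 10 5xFAD libraries, so a level that is high in those libraries by chance enters both, with opposite signs. Tests were limma's moderated tests on log2(RPKM + 0.5), adjusted by Benjamini-Hochberg over all genes of the table, with a call at an adjusted p under 0.05. Log2 changes below are on that scale, given ± standard error, and fold changes are ratios of RPKM + 0.5. Idi1, an isomerase of the isoprenoid arm, was not tested in any table: its level was at most 0.2996 RPKM in every library. With the leading code of the library titles, whose meaning is not given, as a term in the fit, 15 members rose and 6 fell in 5xFAD against WT, and 2 rose and 14 fell in TREM2 knockouts against 5xFAD. Without the filter on low values, 0 rose and 13 fell in TREM2 knockouts against 5xFAD. The shares of all genes above belong to the fit with the filter and without that title code.

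**Figure D1:**
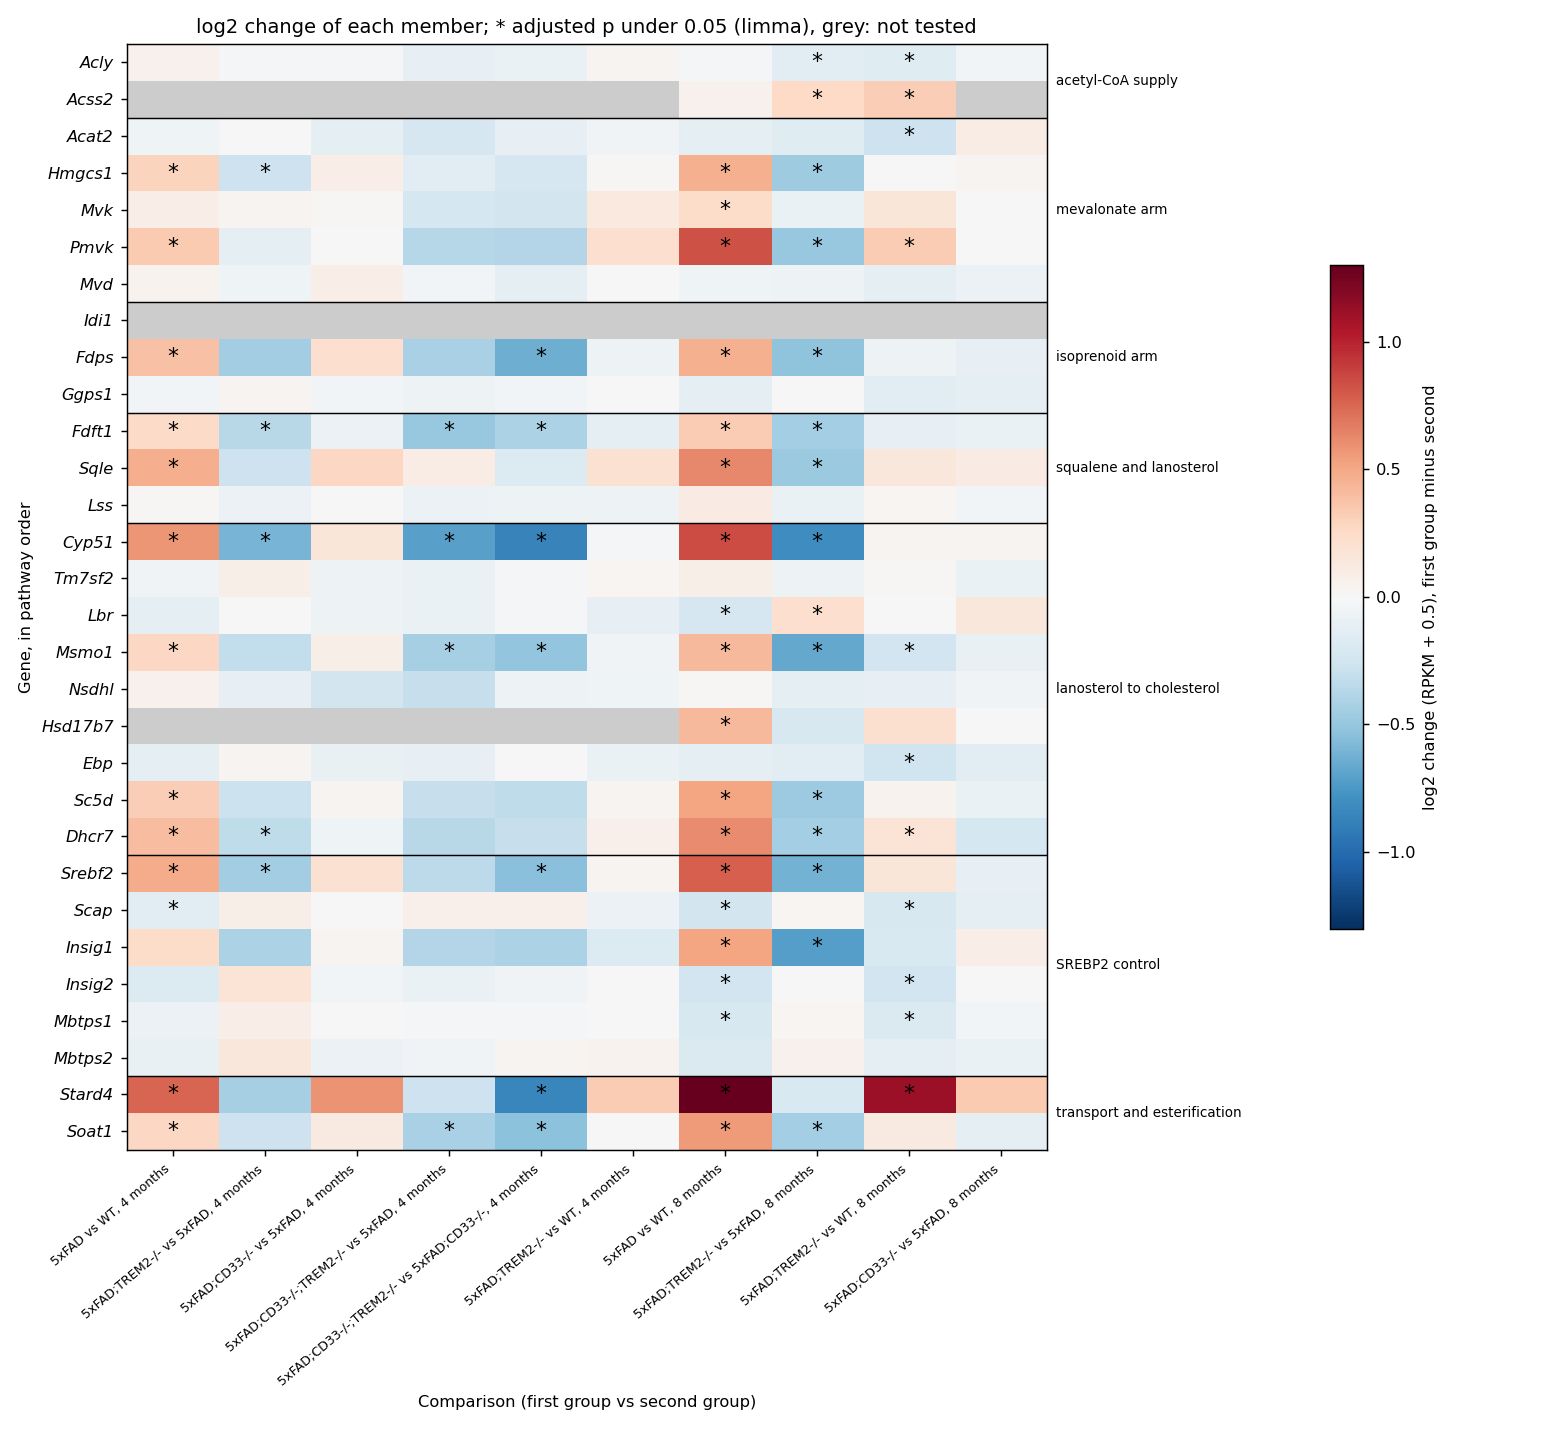
Log2 change of each of the 30 genes (rows, in pathway order) in 10 comparisons (columns), as the first named group minus the second, with asterisks for an adjusted p under 0.05 (limma) and grey for genes not tested. At 8 months the 5xFAD against WT column has 15 genes called higher and the TREM2 knockout against 5xFAD column 13 called lower, while the CD33 knockout columns have no asterisk.

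The cell content of the sorted samples differed between these groups as well. The 8 endothelial markers summed to 180 to 489 RPKM (median 272) in WT, 387 to 1200 (median 964) in 5xFAD and 573 to 1480 (median 962) in TREM2 knockouts, and 8 of 8 were higher in 5xFAD than in WT while none was called between TREM2 knockouts and 5xFAD. The 6 mural cell markers were also all higher in 5xFAD, the microglial markers P2ry12, Cx3cr1, Csf1r, Sall1 and Fcrls lower, by log2 changes of -1.22, -0.93, -0.69, -0.92 and -0.30, as was Tmem119 (mean 657.4 RPKM against 1583 in WT), and 5 of 8 oligodendrocyte markers lower. Of the others, 5 of 5 erythrocyte markers were higher, and of 7 astrocyte markers 4 were higher (Gfap by 1.84) and 1 lower. Monocyte and neutrophil markers summed to 171 to 1370 RPKM in WT, 107 to 1800 in 5xFAD and 217 to 2080 in TREM2 knockouts. Their medians were 339, 320 and 467, and of 6 tested none was called in either comparison. Of 5 perivascular macrophage markers, Mrc1 was called lower in 5xFAD (-0.64), and none was called between TREM2 knockouts and 5xFAD. In TREM2 knockouts against 5xFAD all 8 oligodendrocyte markers had positive changes (median 0.66; Mog, Mag and Cnp called), and P2ry12 and Tmem119 were called higher, by 0.43 and 0.40. With the mean log2 level of the endothelial markers as a covariate, 11 members rose and 1 fell in 5xFAD against WT, and in TREM2 knockouts against 5xFAD 1 rose and 14 fell. The shares of all genes given above are from the fit without a covariate, so they are not a background for these counts. In such bulk samples, fewer cells of a type and less RNA per cell cannot be told apart. The part of the mural, oligodendrocyte, astrocyte, neuronal, erythrocyte, monocyte, neutrophil and perivascular macrophage transcripts in the results was not tested beyond 1 covariate fit. With the oligodendrocyte markers as that covariate, 14 members were called higher and 2 lower in 5xFAD against WT. In TREM2 knockouts against 5xFAD, 0 were called higher and 14 lower.

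Of the acetyl-CoA suppliers, neither differed between 5xFAD and WT. Acly, the ATP citrate lyase that makes cytosolic acetyl-CoA, lay between 41.34 and 47.85 RPKM (median 45.8) in WT, 40.65 and 48.95 (median 44.32) in 5xFAD, and 36.73 and 44.31 (median 40.37) in TREM2 knockouts. The 3 groups overlap, with the TREM2 knockouts lowest. Acly fell by 0.15 ± 0.0435 in TREM2 knockouts against 5xFAD (adjusted p = 0.0214). Acss2, which makes acetyl-CoA from acetate, lay between 0.6098 and 1.144 RPKM (median 0.819) in WT, 0.5034 and 1.112 (median 0.9231) in 5xFAD, and 0.8266 and 1.281 (median 1.201) in TREM2 knockouts. These groups overlap too, with the TREM2 knockouts highest. All TREM2 knockouts but replicate 4 held 1.068 to 1.281 RPKM. That passes the filter without the other groups, which favours a call of higher in TREM2 knockouts. Acss2 rose by 0.26 ± 0.0901 in TREM2 knockouts against 5xFAD (adjusted p = 0.0476), a call lost in 20 of 29 alternatives, among them a pseudocount of 0.1, no filter on low values and both marker covariates (adjusted p up to 0.243).

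In the mevalonate arm, 3 of 5 genes were higher in 5xFAD than in WT and 2 of these fell in TREM2 knockouts. Hmgcs1, the HMG-CoA synthase, lay between 7.8 and 9.51 RPKM (median 8.295) in WT, 10.58 and 13.81 (median 11.67) in 5xFAD, and 7.684 and 9.989 (median 8.502) in TREM2 knockouts. Every 5xFAD library was above every library of the other 2 groups, which overlap each other. It rose by 0.46 ± 0.0593 in 5xFAD (adjusted p = 6.27e-07) and fell by 0.46 ± 0.0544 in TREM2 knockouts against 5xFAD (adjusted p = 1.13e-06). Pmvk, the phosphomevalonate kinase, lay between 5.571 and 6.692 RPKM (median 6.235) in WT, 9.781 and 14 (median 11.05) in 5xFAD, and 6.74 and 8.505 (median 7.885) in TREM2 knockouts. The 3 groups of Pmvk did not overlap, and the TREM2 knockouts stood between the others. Its change was 0.82 ± 0.0619 in 5xFAD against WT (1.77-fold, adjusted p = 1.27e-10), -0.50 ± 0.0569 in TREM2 knockouts against 5xFAD (adjusted p = 6.66e-07) and 0.33 ± 0.0647 in TREM2 knockouts against WT (adjusted p = 0.000295; 0.175 with the endothelial covariate). Mvk, the mevalonate kinase, lay between 3.266 and 4.384 RPKM (median 4.015) in WT, 4.025 and 6.09 (median 4.673) in 5xFAD, and 4.023 and 5.228 (median 4.408) in TREM2 knockouts, and its groups overlapped. It rose by 0.24 ± 0.0705 in 5xFAD (adjusted p = 0.00546), a call lost with the endothelial covariate (0.15, adjusted p = 0.29). Acat2, the cytosolic thiolase that opens the route, and Mvd, which decarboxylates mevalonate diphosphate, were not called in either comparison (log2 changes of -0.12 and -0.05 in 5xFAD against WT).

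In the isoprenoid arm, Fdps differed and Ggps1 did not. Fdps, the farnesyl diphosphate synthase, lay between 2.431 and 3.553 RPKM (median 3.067) in WT, 3.581 and 6.221 (median 4.237) in 5xFAD, and 2.197 and 3.493 (median 2.929) in TREM2 knockouts. All 5xFAD libraries were above those of both other groups, the lowest by a small margin and replicate 9 far above the rest. Fdps rose by 0.46 ± 0.094 in 5xFAD (adjusted p = 0.000238), which the endothelial covariate lowered to 0.28 (adjusted p = 0.112), and fell by 0.53 ± 0.0864 in TREM2 knockouts (adjusted p = 0.000102). Its exons overlap those of Gm43738 on the same strand over 26.7% of their length, so reads could be split between them. Ggps1, which makes the geranylgeranyl diphosphate used for protein prenylation, had medians of 7.502, 6.858 and 6.919 RPKM and changes of -0.13 and -0.01, neither called.

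At the steps to squalene and lanosterol, Fdft1 and Sqle moved and Lss did not. Fdft1, the squalene synthase, lay between 3.105 and 3.601 RPKM (median 3.329) in WT, 3.882 and 5.469 (median 4.315) in 5xFAD, and 2.663 and 3.464 (median 3.126) in TREM2 knockouts. The 5xFAD libraries stood apart from both other groups. It rose by 0.34 ± 0.0606 (adjusted p = 5.8e-05) and fell by 0.44 ± 0.0556 (adjusted p = 3.44e-06) in the 2 comparisons. Sqle, the squalene epoxidase that introduces the first oxygen, was low, with 0.8878 to 1.639 RPKM (median 1.126) in WT, 1.309 to 3.149 (median 1.971) in 5xFAD and 0.9979 to 2.005 (median 1.32) in TREM2 knockouts. Its groups overlapped. Sqle rose by 0.63 ± 0.137 in 5xFAD (adjusted p = 0.000423), which the endothelial covariate lowered to 0.24 (adjusted p = 0.313), and fell by 0.48 ± 0.125 in TREM2 knockouts against 5xFAD (adjusted p = 0.00887). Lss, which closes squalene epoxide into lanosterol, had medians of 1.325, 1.433 and 1.338 RPKM and changes of 0.11 and -0.09, neither called. Fdft1 shares 18.3% of its exon length with Ctsb on the opposite strand and Hmgcs1 shares 12.1% with the antisense gene Gm48342, and the strand setting of the counting is not given in the sources used here.

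**Figure D2:**
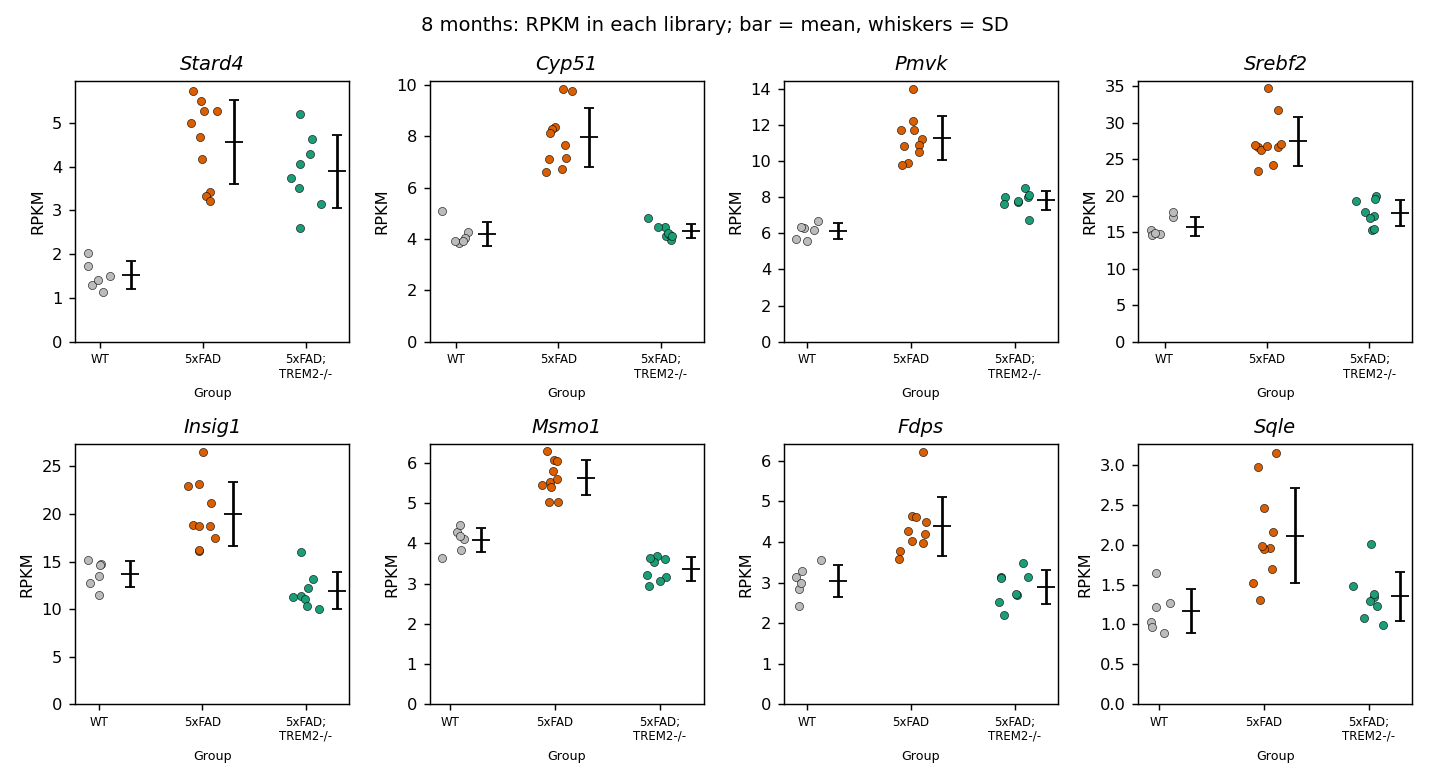
RPKM of 8 genes (panels) in each WT, 5xFAD and TREM2 knockout library at 8 months (points), with the mean (bar) and SD (whiskers) beside each group. Cyp51, Srebf2, Insig1 and Fdps lie near the WT range in the TREM2 knockouts, Msmo1 lies mostly below it, Pmvk lies between the other groups, and Stard4 stays above the WT libraries.

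From lanosterol to cholesterol, 5 of 9 genes rose and 1 fell in 5xFAD, and 4 fell and 1 rose in TREM2 knockouts. Cyp51, the lanosterol demethylase, lay between 3.84 and 5.078 RPKM (median 3.975) in WT, 6.618 and 9.839 (median 7.874) in 5xFAD, and 3.956 and 4.799 (median 4.208) in TREM2 knockouts. All 5xFAD libraries were far above the other groups, which lay in the same range. Cyp51 rose 1.8-fold in 5xFAD (log2 change 0.85 ± 0.0761, adjusted p = 2.4e-09) and fell by 0.81 ± 0.0699 in TREM2 knockouts (adjusted p = 5.19e-09), leaving a change of 0.04 in TREM2 knockouts against WT. Msmo1, a methylsterol monooxygenase of the later steps, lay between 3.633 and 4.468 RPKM (median 4.144) in WT, 5.023 and 6.306 (median 5.563) in 5xFAD, and 2.931 and 3.68 (median 3.377) in TREM2 knockouts. The TREM2 knockouts were the lowest group, and only their highest libraries reached the WT range. Msmo1 rose by 0.42 ± 0.0569 in 5xFAD (adjusted p = 1.47e-06), fell by 0.67 ± 0.0523 in TREM2 knockouts against 5xFAD (adjusted p = 9.26e-10) and was lower in TREM2 knockouts than in WT by -0.25 ± 0.0596 (adjusted p = 0.00151; 0.481 with the endothelial covariate).

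Sc5d, the sterol desaturase, lay between 3.674 and 5.74 RPKM (median 5.28) in WT, 6.825 and 8.296 (median 7.273) in 5xFAD, and 4.628 and 5.812 (median 5.1) in TREM2 knockouts, with all 5xFAD libraries above the others. It rose by 0.51 ± 0.0687 (adjusted p = 1.24e-06) and fell by 0.47 ± 0.0632 (adjusted p = 7.13e-06). Dhcr7, the reductase of the last step of the Kandutsch-Russell branch, lay between 6.107 and 8.235 RPKM (median 7.294) in WT, 10.04 and 12.41 (median 11.34) in 5xFAD, and 6.584 and 9.009 (median 8.299) in TREM2 knockouts. Its 5xFAD libraries stood apart. Dhcr7 rose by 0.61 ± 0.0632 (adjusted p = 2.12e-08), fell by 0.44 ± 0.0581 in TREM2 knockouts (adjusted p = 5.31e-06) and was 0.17 ± 0.0661 above WT there (adjusted p = 0.0381), a call lost in 13 of 26 alternatives, among them the title code as a term and no filter on low values (adjusted p up to 0.115). Hsd17b7, a ketosteroid reductase, lay between 0.4803 and 1.055 RPKM (median 0.623) in WT, 0.831 and 1.522 (median 1.054) in 5xFAD, and 0.7351 and 1.077 (median 0.8454) in TREM2 knockouts, and its groups overlapped. It rose by 0.42 ± 0.0997 in 5xFAD (adjusted p = 0.000979), a call lost with the endothelial covariate (0.30, adjusted p = 0.12). Only its 5xFAD median reached the filter's RPKM of 1, so the filter favours a call of higher in 5xFAD. Lbr, a nuclear lamina protein with sterol reductase activity, lay between 12.81 and 15.49 RPKM (median 14.07) in WT, 9.882 and 13.79 (median 12.2) in 5xFAD, and 12.05 and 17.41 (median 13.95) in TREM2 knockouts. Its groups overlapped and went the other way: it fell by 0.21 ± 0.0752 in 5xFAD (adjusted p = 0.0175) and rose by 0.22 ± 0.0691 in TREM2 knockouts (adjusted p = 0.029). The fall was lost with the oligodendrocyte covariate (-0.21, adjusted p = 0.0557) and without WT replicate 6, and larger with the endothelial covariate (-0.49). The rise was lost in 11 of 30 alternatives (adjusted p up to 0.0818). Tm7sf2, the other sterol reductase of that step, Nsdhl, a sterol dehydrogenase, and Ebp, a sterol isomerase, were not called in either comparison, with changes from -0.15 to 0.08. Tm7sf2 shares 12.1% of its exon length with Vps51 on the same strand.

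Of the SREBP2 control genes, the factor itself and Insig1 were higher in 5xFAD and lower in TREM2 knockouts, while Scap, Insig2 and Mbtps1 fell in 5xFAD. Srebf2, which encodes SREBP2, lay between 14.62 and 17.77 RPKM (median 15.15) in WT, 23.35 and 34.7 (median 26.75) in 5xFAD, and 15.36 and 19.92 (median 17.52) in TREM2 knockouts. The 5xFAD libraries stood above both other groups, which overlapped. Srebf2 rose 1.71-fold in 5xFAD (0.78 ± 0.0743, adjusted p = 7.07e-09; 0.54 with the endothelial covariate) and fell by 0.62 ± 0.0683 in TREM2 knockouts (adjusted p = 4.23e-07). Insig1, an SREBP target that retains the SCAP complex, lay between 11.5 and 15.13 RPKM (median 14.06) in WT, 16.16 and 26.55 (median 18.8) in 5xFAD, and 10 and 16.01 (median 11.34) in TREM2 knockouts. The groups were separated from 5xFAD by small gaps. Insig1 rose by 0.52 ± 0.102 (adjusted p = 0.000154) and fell by 0.72 ± 0.0937 (adjusted p = 4.82e-06).

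Scap, the escort protein, lay between 21.24 and 24.94 RPKM (median 23.25) in WT, 17.74 and 21.79 (median 19.56) in 5xFAD, and 17.56 and 22.97 (median 20.29) in TREM2 knockouts, with overlapping groups, and fell by 0.23 ± 0.0555 in 5xFAD (adjusted p = 0.000927). Insig2, the other INSIG gene, lay between 7.729 and 9.97 RPKM (median 9.122) in WT, 5.721 and 8.797 (median 7.515) in 5xFAD, and 6.008 and 8.79 (median 7.762) in TREM2 knockouts, with overlapping groups, and fell by 0.25 ± 0.0804 (adjusted p = 0.0111). Mbtps1, the site-1 protease, lay between 34.86 and 39.5 RPKM in WT, 29.66 and 34.46 in 5xFAD and 31.05 and 34.28 in TREM2 knockouts. Its WT libraries were above all others. Mbtps1 fell by 0.21 ± 0.0379 in 5xFAD (adjusted p = 5.3e-05) and was lower in TREM2 knockouts than in WT by -0.19 ± 0.0397 (adjusted p = 0.000574). Mbtps2, the site-2 protease, whose exons overlap Yy2 on the same strand over 28.4% of their length, had a change of -0.19 that was not called (adjusted p = 0.0717). With the endothelial covariate Scap, Insig2 and Mbtps1 were no longer called (adjusted p = 0.0511, 0.298 and 0.0818). Between TREM2 knockouts and 5xFAD these 3 genes differed by 0.03, 0.00 and 0.03, with no call.

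Both sterol handling genes rose in 5xFAD, and they differed in the TREM2 knockouts. Stard4, a cytosolic sterol carrier and known SREBP2 target on chromosome 18 (33199355 to 33213862 on GRCm38, minus strand), lay between 1.138 and 2.036 RPKM (median 1.454) in WT, 3.22 and 5.728 (median 4.831) in 5xFAD, and 2.594 and 5.198 (median 3.894) in TREM2 knockouts. All libraries with amyloid were above all WT libraries, and the TREM2 knockouts overlapped 5xFAD. As a ratio of RPKM + 0.5, Stard4 rose 2.49-fold in 5xFAD (1.32 ± 0.134, adjusted p = 1.88e-08) and 2.17-fold in TREM2 knockouts against WT (1.11 ± 0.14, adjusted p = 2.49e-06). Its change of -0.20 ± 0.123 between TREM2 knockouts and 5xFAD was not called (adjusted p = 0.286). With the endothelial covariate these 3 changes were 0.67 (adjusted p = 1.36e-06), 0.31 (adjusted p = 0.0537) and -0.36 (adjusted p = 2.78e-05), so both outcomes that involve the TREM2 knockouts changed with the covariate. Soat1, which esterifies cholesterol for storage, lay between 15.13 and 21.14 RPKM (median 17.11) in WT, 20.96 and 30.18 (median 25.66) in 5xFAD, and 15.68 and 21.74 (median 19.81) in TREM2 knockouts. The 5xFAD libraries met the others only at their lower end. Soat1 rose by 0.55 ± 0.0832 (adjusted p = 5.45e-06) and fell by 0.44 ± 0.0764 (adjusted p = 0.000193).

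Counted over the members, 11 had every 5xFAD library above every WT library at 8 months, where 9.97% of all genes did, and 1, Mbtps1, had every 5xFAD library below every WT library, where 12.6% did. In the TREM2 comparison 10 members had every TREM2 knockout library below every 5xFAD library, where 2.44% of all genes did. In TREM2 knockouts against WT, 4 members rose (Acss2, Pmvk, Dhcr7 and Stard4) and 7 fell (Acly, Acat2, Msmo1, Ebp, Scap, Insig2 and Mbtps1), where 19.9% of all genes rose and 22.4% fell; the median change was 0.00 beside -0.03. Acss2 could pass the filter through the TREM2 knockouts alone, which favours its call as higher there. Pmvk and Stard4 had every TREM2 knockout library above every WT library (8.6% of all genes) and Mbtps1 every one below (9.41%). Acat2 lay between 1.828 and 2.19 RPKM in WT and 1.246 and 1.872 in TREM2 knockouts and fell by 0.27 (adjusted p = 0.00441), and Ebp lay between 22.42 and 27.82 and between 17.1 and 24.86 and fell by 0.26 (adjusted p = 0.00504; 0.03 with the endothelial covariate). Both pairs of groups overlapped. With the title code as a term 2 rose and 7 fell, and with the endothelial covariate 1 rose and 1 fell. Over the synthesis enzymes tested, the median log2 ratio of a library to the WT mean ran from 0.20 to 0.46 in 5xFAD, from -0.06 to 0.05 in WT and from -0.07 to 0.06 in TREM2 knockouts.

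**Figure D3:**
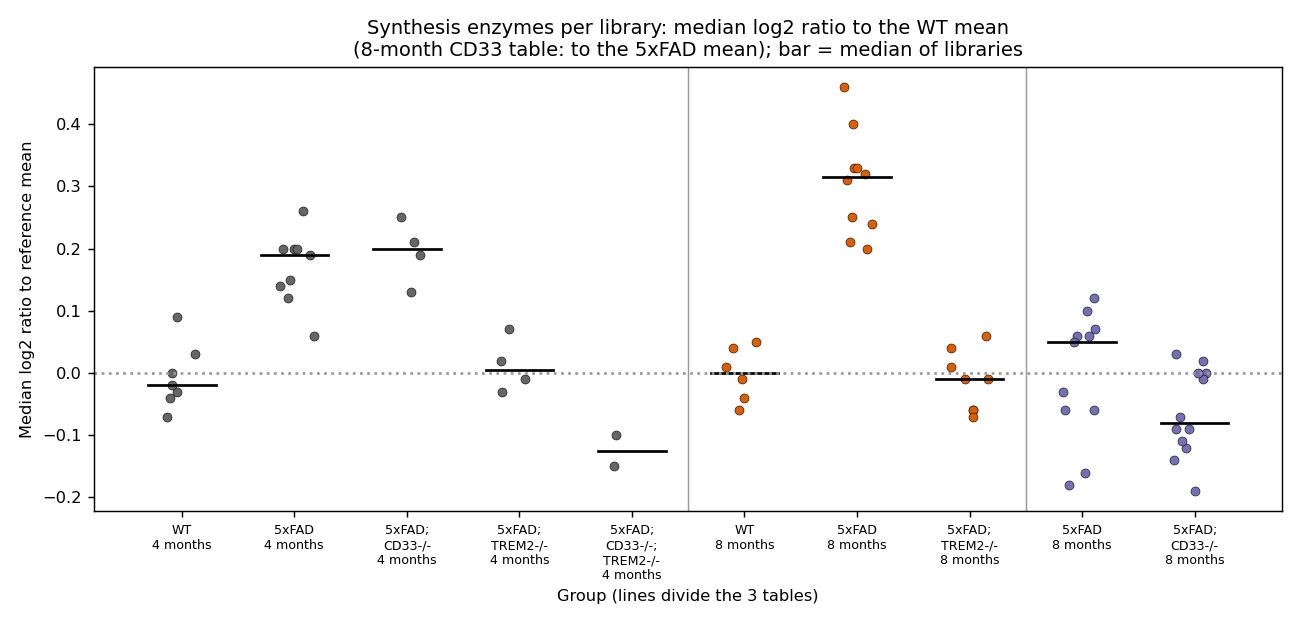
Median log2 ratio of the synthesis enzymes to the reference mean in each library (points), by group, with the group's median (bar); the reference is WT, or 5xFAD in the 8-month table without WT. The 5xFAD libraries at 8 months (0.20 to 0.46) lie above the WT and TREM2 knockout libraries, and the CD33 knockouts at 4 months (0.13 to 0.25) lie in the range of 5xFAD (0.06 to 0.26).

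At 4 months the same route was higher in 5xFAD, with smaller changes than at 8 months. The ages were normalized apart and differ in group sizes and cell content, and the difference between them was not tested. Of 27 members tested, 12 rose and 1 fell in 5xFAD against WT, where 8.95% of all 13024 genes rose and 7.79% fell, and the median change was 0.09 beside -0.02. They included Hmgcs1, Pmvk, Fdps, Fdft1, Sqle, Cyp51, Msmo1, Sc5d, Dhcr7, Srebf2, Stard4 and Soat1, and the gene that fell was Scap (-0.15 ± 0.047, adjusted p = 0.0279, lost in 7 of 27 alternatives). Acss2 and Hsd17b7 did not pass the filter on low values. With the title code as a term 11 rose and 1 fell. The 8 endothelial markers summed to 123 to 842 RPKM (median 215) in 5xFAD and 93.9 to 205 (median 134) in WT, 3 of 8 were called higher, and 10 members rose and none fell with their level as a covariate.

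Stard4 lay between 0.5315 and 1.093 RPKM (median 0.9157) in WT and 1.075 and 3.23 (median 1.875) in 5xFAD at 4 months. The groups met only at the edge, and replicate 9 of WT was the lowest. Stard4 rose by 0.76 ± 0.145 (adjusted p = 0.000572), and by 0.44 with the endothelial covariate. Cyp51 lay between 2.784 and 3.892 RPKM (median 3.225) in WT and 4.201 and 6.044 (median 5.134) in 5xFAD, with no overlap, and rose by 0.58 ± 0.0762 (adjusted p = 7.11e-06). Pmvk also separated the groups, at 5.133 to 6.651 RPKM (median 6.101) in WT and 6.719 to 9.339 (median 7.464) in 5xFAD, and rose by 0.34 ± 0.0712 (adjusted p = 0.00145). These were the 2 members whose groups did not overlap, where 2.96% of all genes were higher without overlap. Srebf2 lay between 11.66 and 16.13 RPKM (median 14.36) in WT and 15.31 and 25.15 (median 20.42) in 5xFAD, overlapping narrowly, and rose by 0.49 ± 0.0836 (adjusted p = 0.000182). Insig1 varied from 7.69 to 18.97 RPKM in WT and from 9.154 to 17.26 in 5xFAD, and its change of 0.24 ± 0.155 was not called (adjusted p = 0.316).

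The smaller changes at 4 months showed overlapping groups. Sqle lay between 0.4378 and 1.23 RPKM (median 0.6116) in WT and 0.7173 and 1.61 (median 1.11) in 5xFAD and rose by 0.47 ± 0.138 (adjusted p = 0.0195). The call for Sqle was lost with the title code (0.39, adjusted p = 0.0581), the replicate block (0.44, adjusted p = 0.139) and the endothelial covariate (0.32, adjusted p = 0.177). Fdps lay between 1.854 and 3.112 RPKM (median 2.485) and between 2.378 and 4.198 (median 3.303) and rose by 0.39 ± 0.104 (adjusted p = 0.0111). Fdps at 2.378 RPKM in its lowest 5xFAD library was below the WT median. Dhcr7 lay between 6.736 and 9.137 RPKM (median 7.623) and between 8.056 and 11.4 (median 10.24) and rose by 0.40 ± 0.0717 (adjusted p = 0.000308). The other 5 genes, Sc5d, Hmgcs1, Msmo1, Soat1 and Fdft1, rose by 0.32, 0.29, 0.27, 0.27 and 0.25 in that order. Apart from Scap, the remaining members were not called, among them Acly, Acat2, Mvk, Mvd, Ggps1, Lss, Tm7sf2, Lbr, Nsdhl, Ebp, Insig2, Mbtps1 and Mbtps2.

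In TREM2 knockouts at 4 months 5 of 27 members fell against 5xFAD and none rose, where 2% of all genes fell and 0.392% rose, with a median change of -0.11 beside 0.02. With the title code as a term 5 fell as well, with the endothelial covariate 9, and with only the compared groups in the fit 1. Without TREM2 knockout replicates 3, 7 and 9 in turn, 3, 2 and 3 members fell, and without 5xFAD replicates 13 and 6, 8 and 3 did. The endothelial markers did not differ (0 of 8 called, summed 159 to 371 RPKM against 123 to 842). Cyp51 read 3.357, 2.691, 3.256 and 3.221 RPKM in the 4 TREM2 knockouts. All 4 were below every 5xFAD library and within or below the WT range, and it was the 1 member that separated the groups this way, as did 1.44% of all genes. Cyp51 fell by 0.60 ± 0.0909 (adjusted p = 0.000188). Srebf2 read 14.27, 15.11, 13.22 and 15.78 RPKM, all in the range of WT and 3 of them below every 5xFAD library (lowest 15.31), and fell by 0.45 ± 0.0997 (adjusted p = 0.0102). Fdft1 read 2.888, 2.4, 3.176 and 2.646 RPKM and fell by 0.36 ± 0.0766 (adjusted p = 0.00823). Dhcr7 fell by 0.33 ± 0.0855 (adjusted p = 0.0342), a call lost in 11 of 24 alternatives, and Hmgcs1 by 0.27 ± 0.0672 (adjusted p = 0.0273), lost in 6 of 24. Msmo1 read 3.664, 3.241, 3.028 and 2.827 RPKM, with a change of -0.31 that missed the threshold (adjusted p = 0.0531). Stard4 read 1.019, 1.026, 1.238 and 1.6 RPKM, between the medians of WT and 5xFAD, and its change of -0.43 was not called (adjusted p = 0.263).

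Against WT, TREM2 knockouts at 4 months had no member called by limma, and 1, Pmvk, had an unadjusted p under 0.05 (p = 0.0187 by limma). The smallest adjusted p was 0.587, and 0.322% of all genes rose and 0.0768% fell; voom, a count-based form of limma run on the recovered reads, also called 0. Pmvk read 6.102, 6.781, 8.172 and 7.123 RPKM, overlapping both WT and 5xFAD. The number of calls in the 5xFAD against WT comparison and in this one cannot be set against each other directly, since the groups differ in size.

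**Figure D4:**
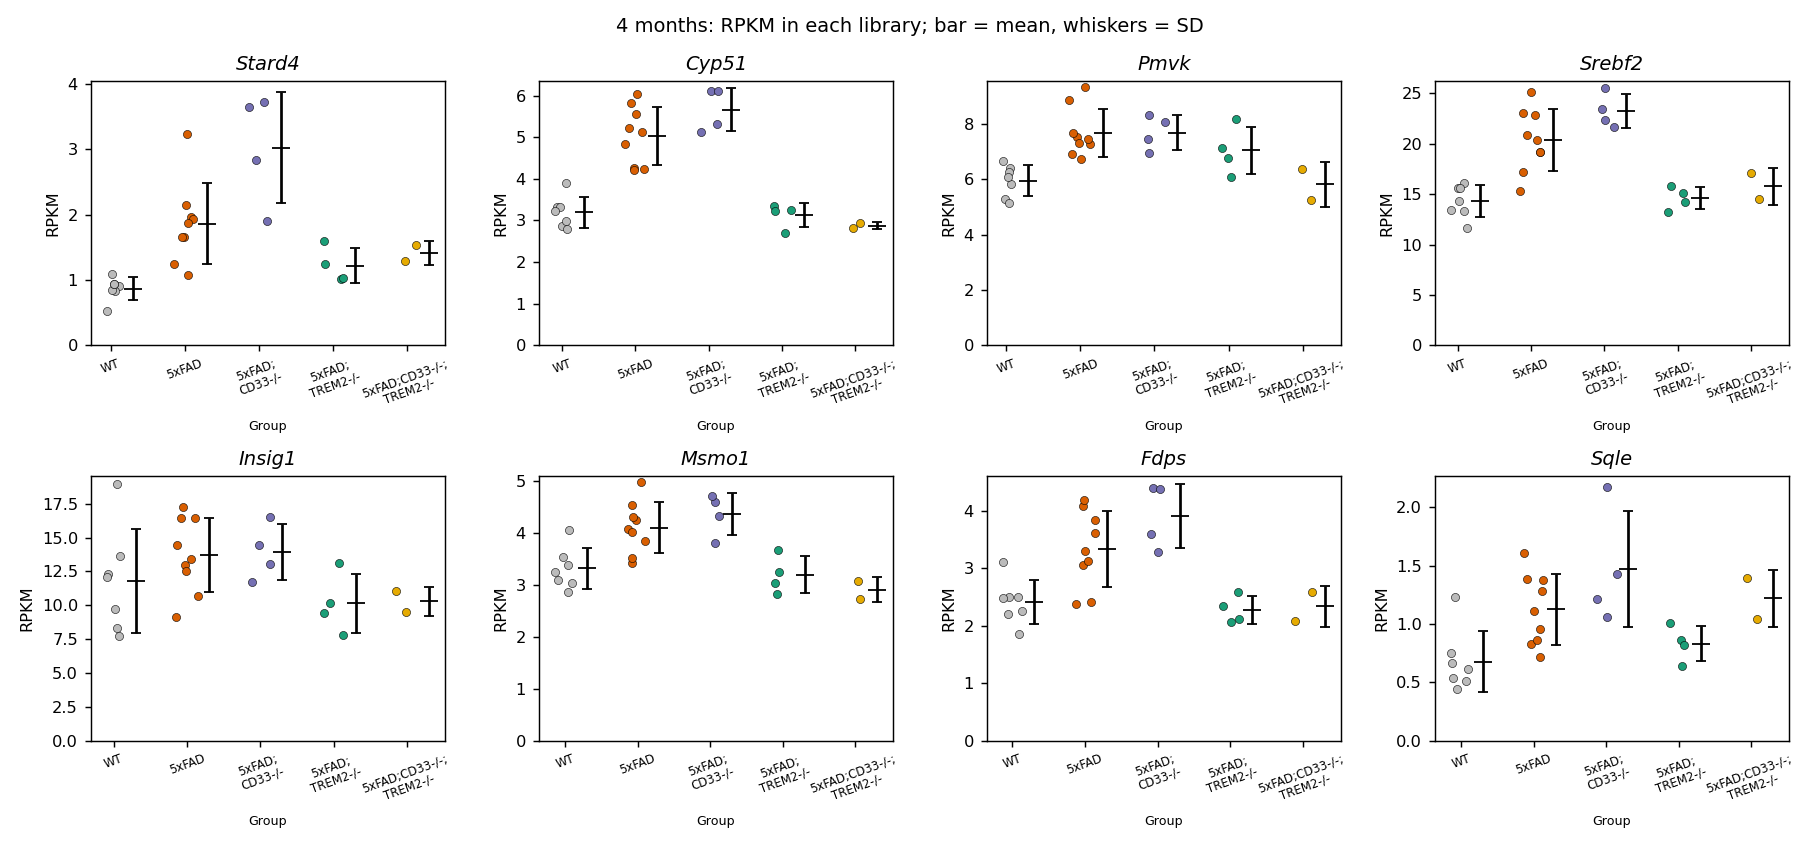
RPKM of 8 genes (panels) in each library at 4 months (points) in 5 genotype groups, with the mean (bar) and SD (whiskers) beside each group. Cyp51 and Srebf2 are higher in 5xFAD and CD33 knockouts than in WT, and the TREM2 knockouts (2.691 to 3.357 for Cyp51) and double knockouts lie in or near the WT range, and for Stard4 the CD33 knockouts (1.901 to 3.723) lie above the WT libraries.

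No member of the route was called in CD33 knockouts against 5xFAD at either age in the main limma fit. At both ages the shares of all genes called were small, so a count of 0 is near them and not particular to the route. At 4 months 0 of 27 members were called in that fit against 5xFAD, where 1.9% of all genes rose and 3% fell. The median change was 0.00 beside -0.04, and 2 members had an unadjusted p under 0.05. Stard4 was the nearest to a call: it read 2.833, 3.723, 3.65 and 1.901 RPKM in the 4 CD33 knockouts. All were above the 5xFAD mean, and the groups overlapped. Its change was 0.58 ± 0.173 (adjusted p = 0.0504). The call was made by voom on the recovered reads (0.67, adjusted p = 0.0368) and with the title code as a term (0.75, adjusted p = 0.0188), where Hmgcs1 (0.16, adjusted p = 0.0402) and Srebf2 (0.31, adjusted p = 0.0399) were also called. The endothelial markers of the CD33 knockouts at 4 months summed to 288 to 750 RPKM (median 517), against 123 to 842 (median 215) in 5xFAD. All 8 had positive changes (median 1.00), and 1 of 8 was called. The CD33 knockouts also had more oligodendrocyte RNA (108 to 232 against 87.1 to 142 RPKM, 5 of 8 called higher). For Stard4, 5xFAD;CD33-/- against 5xFAD at 4 months, the change was 0.15 with the endothelial covariate and 0.07 with the oligodendrocyte covariate. Nsdhl was the other member with a small p and missed the threshold at -0.23 ± 0.0848 (adjusted p = 0.0864). Cyp51 read 5.136, 6.104, 6.099 and 5.307 RPKM and Srebf2 21.67, 25.54, 23.41 and 22.41, in the upper part of the 5xFAD range or above it, with changes of 0.16 and 0.20 that were not called. Leaving out CD33 knockout replicate 4 gave 2 calls, Stard4 higher and Nsdhl lower, and leaving out 5xFAD replicate 1 gave 1, Stard4. The calls among all genes were unstable too: leaving out single libraries gave 22 to 2346 of them, against 638 with all libraries.

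At 8 months 0 of 28 members were called by limma in CD33 knockouts against 5xFAD, where 2.95% of all 11345 genes rose and 0.344% fell, and voom and the fit with the title code also called 0. The median change was -0.04 beside -0.02, and the smallest adjusted p was 0.232. An unadjusted p under 0.05 was seen for 3 members: Stard4 was higher (0.34 ± 0.143, adjusted p = 0.271, above the 5xFAD mean in 10 of 12 libraries), and Ggps1 and Dhcr7 lower. Stard4 lay between 1.801 and 3.788 RPKM (median 3.315) in 5xFAD and 2.202 and 5.7 (median 3.891) in CD33 knockouts. Cyp51 lay between 7.243 and 12.67 RPKM (median 8.849) in 5xFAD and 7.778 and 10.31 (median 9.41) in CD33 knockouts. Srebf2 lay between 23.64 and 32.37 RPKM (median 30.67) and 21.58 and 32.77 (median 27.86). For each of these genes the groups overlapped over most of their range. The endothelial markers were 8 of 8 higher in CD33 knockouts (summed 195 to 783 against 103 to 367 RPKM), and 0 members were called with their level as a covariate. Without the CD33 knockout library that held Cd33, 0 members were called too, and without CD33 knockout replicate 4, 1 was, Ggps1, which was lower.

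**Figure D5:**
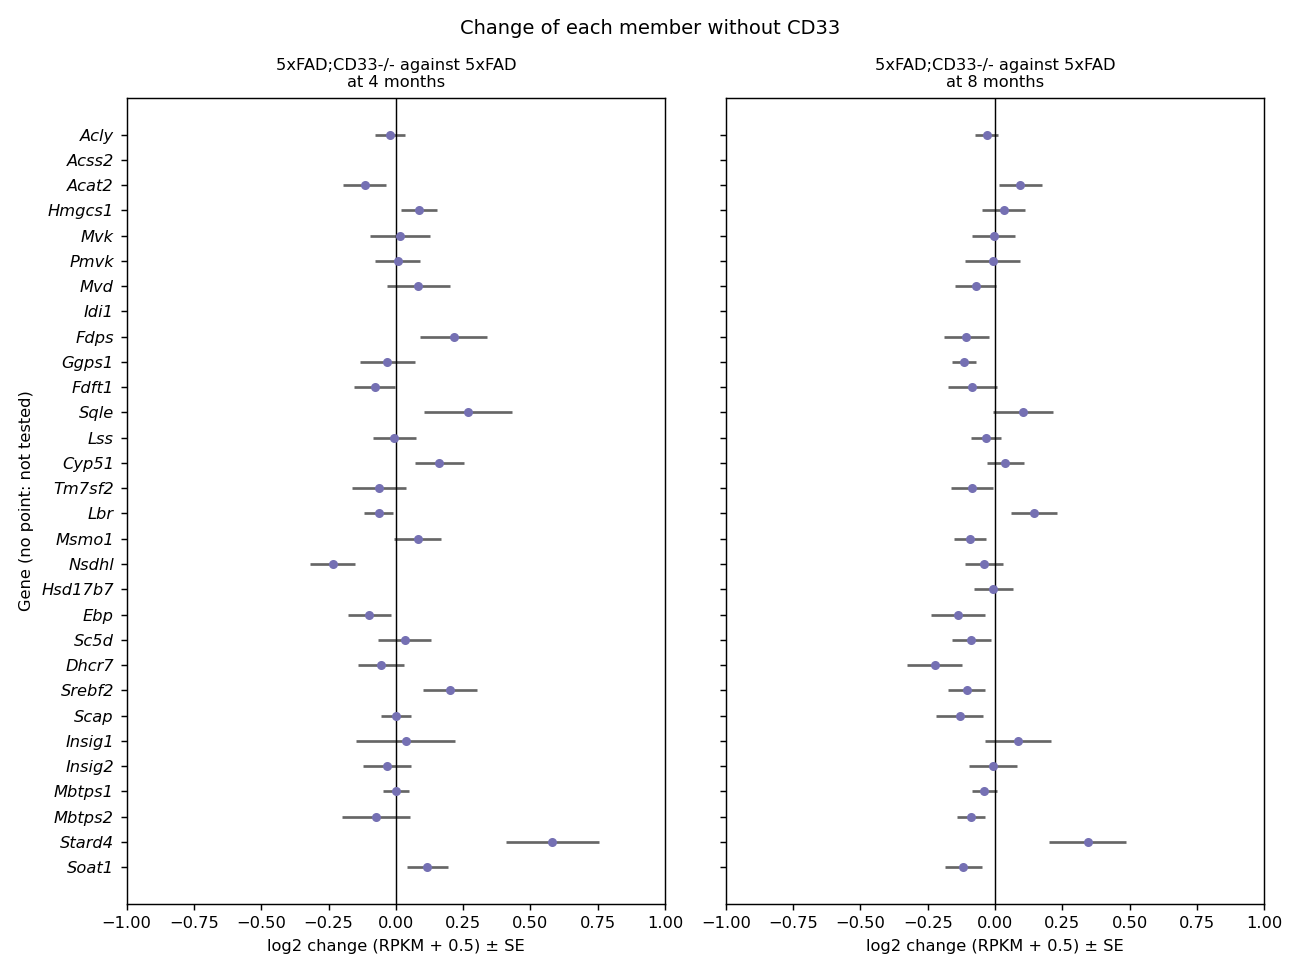
Log2 change (points) and standard error (bars) of each member in CD33 knockouts against 5xFAD at 4 and at 8 months. At 8 months the changes run from -0.22 to 0.34 and at 4 months from -0.23 to 0.58. Stard4 is the highest at both ages, and no member is called in the main fit.

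The double knockouts, with 2 libraries, were lower than the CD33 knockouts for 7 members: Fdps, Fdft1, Cyp51, Msmo1, Srebf2, Stard4 and Soat1. None was higher, where 3.92% of all genes fell and 0.99% rose, and the median change was -0.17 beside 0.01. Against 5xFAD, 4 members fell, namely Fdft1, Cyp51, Msmo1 and Soat1, where 3.41% of all genes fell and 0.338% rose; the median was -0.22 beside -0.02. Both double knockout libraries were below every CD33 knockout library for 12 members (13.1% of all genes) and below every 5xFAD library for 7 (7.35%). Cyp51 read 2.819 and 2.931 RPKM in the double knockouts. Both values were below every 5xFAD and every CD33 knockout library. Cyp51 fell by 0.86 ± 0.131 against CD33 knockouts (adjusted p = 0.000171) and by 0.70 ± 0.118 against 5xFAD (adjusted p = 0.000681). Stard4 read 1.54 and 1.286 RPKM, below the 4 CD33 knockouts and inside the 5xFAD range, and fell by 0.85 ± 0.249 against CD33 knockouts (adjusted p = 0.0473), a call lost in 12 of 17 alternatives. Soat1 read 14.33 and 14.71 RPKM, against 22.66, 21.09, 22.38 and 19.11 in CD33 knockouts, and fell by 0.54 ± 0.109 (adjusted p = 0.00373). Srebf2 read 14.51 and 17.11 RPKM and fell by 0.54 ± 0.144 (adjusted p = 0.0261).

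These calls rest on few libraries. The double knockout replicate 1 held Cd33, and without it 1 member was called in each comparison, with the lone remaining library assumed to vary like the other groups; without replicate 2, 2 members were called in each. With the title code as a term, 2 members fell against CD33 knockouts and 1 against 5xFAD; replicate 2 is the only library of its code, so that fit rests on replicate 1, the library with Cd33. With only the compared groups in the fit the counts were again 2 and 1. The count against CD33 knockouts was 4, 3 and 3 without their replicates 1, 2 and 3. A test of whether the effect of losing both receptors differed from the sum of the single losses called 0 of 13024 genes (0%) by limma, with a smallest adjusted p among members of 0.91 and a smallest unadjusted p of 0.053, for Soat1. Endothelial and oligodendrocyte markers were lower in double than in CD33 knockouts without a call (0 of 8 in both lists); with the oligodendrocyte covariate 2 members fell.

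Lists of genes next to the route were read in the same way in 5xFAD against WT at 8 months. Of 13 tested genes of fatty acid synthesis and SREBP1, 7 rose and 2 fell, with a median change of 0.28. Acaca, the acetyl-CoA carboxylase, rose by 1.52 (limma adjusted p = 6.07e-14) and fell by 0.95 in TREM2 knockouts (adjusted p = 3.03e-10). Acaca was low, with means of 0.4486 RPKM in WT, 2.231 in 5xFAD and 0.9061 in TREM2 knockouts. Only the 5xFAD mean reached the filter's RPKM of 1, which favours both calls. Fads1, a fatty acid desaturase, and Lpin1, a phosphatidate phosphatase, fell by 0.56 and 0.39 in 5xFAD. Of 11 genes of sterol efflux and LXR, the nuclear receptor for oxysterols, 5 rose and 5 fell. Apoe, the main brain apolipoprotein, rose by 3.62 (adjusted p = 7.71e-14) and Ch25h, which makes 25-hydroxycholesterol, by 2.77 (adjusted p = 2.05e-10), while Abca1, the cholesterol exporter, fell by 0.58 (adjusted p = 4.99e-09). In TREM2 knockouts against 5xFAD Apoe fell by 0.81, Ch25h fell by 1.37 and Abca1 rose by 0.53, all called.

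Of 12 genes of lysosomal and membrane sterol transport, 5 rose and 5 fell in 5xFAD. Npc2, which lifts cholesterol out of the lysosome, rose by 0.88 and Tmem97, an SREBP target, by 0.49, and both fell in TREM2 knockouts, by 0.53 and 0.40. Osbp, which exchanges sterols at contact sites, fell by 0.25. Of 12 enzymes of the prenyl branches, 2 rose and 3 fell; Fntb, the beta subunit of farnesyltransferase, rose by 0.32, while Fnta, its alpha subunit, and Pggt1b, the beta subunit of the enzyme that attaches geranylgeranyl groups, each fell by 0.23. Of 9 genes of sterol sensing and degradation in the endoplasmic reticulum, 1 rose and 5 fell. Rnf145, a ubiquitin ligase of sterol-regulated degradation, fell by 0.63 and Faf2 by 0.29. In TREM2 knockouts against 5xFAD, 0 rose and 3 fell of the fatty acid list, 4 and 2 of the efflux list, 3 and 2 of the lysosomal list, 0 and 1 of the prenyl list and 1 and 0 of the sensing list. All 5 lists are read beside the 28.3% and 30.5% of genes that rose and fell in 5xFAD against WT, and the 7.04% and 10.3% in TREM2 knockouts against 5xFAD.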

How the data were processed

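RNA from sorted CD11b and CD45 positive mouse brain cells was sequenced from 73 libraries in 10 groups, grouped by the genotype and age in the labels. Libraries were made with a stranded TruSeq mRNA kit, per the labels' protocols. STAR, HTSeq and edgeR are named, with mm10, per the submitters' processing notes; tool versions, annotation release and strand setting were not given in the sources used here. By the titles of the deposited tables and their values, the authors gave RPKM in 3 tables, normalized apart, so no test crosses tables. RPKM multiplied by gene length came out as whole reads for 100% of values (tolerance 0.05 reads); total reads ran from 28942881 to 79654244 at 4 months, 26753820 to 42788464 in the 8-month CD33 table and 21188034 to 51031163 in the 8-month TREM2 table, and the authors' library factors ran from 0.8435 to 1.096.

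A gene was tested if 2, 11 or 6 libraries of its table (the size of the smallest group) reached an RPKM of 1: 13024 at 4 months, 11345 in the 8-month CD33 table and 12622 in the 8-month TREM2 table. limma 3.58.1 in R 4.3.3 was run on log2(RPKM + 0.5), two-sided, with trend and robust moderation, all groups of a table in 1 fit, Benjamini-Hochberg adjustment and a call at an adjusted p under 0.05. A pseudocount of 0.5 understates changes of low genes. A low gene can pass the filter through the group where it is high, which favours a call of higher there. The scripts were tested on simulated data. Promoters came from a RefSeq table and exon overlaps from GENCODE M21.

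The members and lists were chosen with earlier results of these data known. All 30 members are named; values per library are given for members called in some comparison, fullest for the 8 with the largest changes, and up to 3 genes per neighbouring list with the smallest p. Some genes of these lists are not reported here. Alternatives were the pseudocount, the low-value filter, median-ratio scaling, voom on recovered reads, the title code, the replicate number as a block, marker covariates, only the compared groups, and leaving out libraries. Percentages of all genes called are given for the main fit only, not for the alternatives.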

Additional observations from a re-analysis of the deposited data

Results flagged for a closer look

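In groups of 4 to 10 libraries, 16 of 195 sets of a member and a group held a library whose gap to the nearest other passed Dixon's 95% critical value, where chance gives about 5% of sets. In TREM2 knockouts at 4 months, replicate 3 was high for Mvk (5.468 RPKM, others 4.171 to 4.333), replicate 1 high for Lbr (13.88, others 12.03 to 12.31) and for Mbtps2 (4.273, others 2.375 to 2.509), and replicate 7 low for Dhcr7 (6.832, others 8.313 to 8.642). In WT at 4 months, replicate 12 was high for Mvd (7.407, others 4.569 to 5.483) and replicate 9 low for Stard4 (0.5315, others 0.8373 to 1.093). In 5xFAD at 4 months, replicate 13 was low for Dhcr7 (8.056, others 9.955 to 11.4). In CD33 knockouts at 4 months, replicate 4 was high for Nsdhl (5.937, others 4.426 to 4.596) and for Scap (26.24, others 21.84 to 22.39).

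In WT at 8 months, replicate 1 was low for Acly (41.34 RPKM, others 45.53 to 47.85) and replicate 2 low for Mvd (3.404, others 5.314 to 6.534). In 5xFAD at 8 months, replicate 2 was low for Acss2 (0.5034, others 0.7712 to 1.112), and replicate 9 was high for Mvd (7.549, others 4.139 to 5.356) and for Fdps (6.221, others 3.581 to 4.646). In TREM2 knockouts at 8 months, replicate 4 was low for Acss2 (0.8266, others 1.068 to 1.281) and for Dhcr7 (6.584, others 7.837 to 9.009).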

How the results depend on the processing

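Over the alternatives run, 6780 values kept their side of the threshold, 55 passed it newly and 179 lost it. A further 2 changed sign and were called in the main fit or in the alternative. Sign changes of values called in neither fit are among the 6780. Among members, 11 calls in 5xFAD against WT and 12 in TREM2 knockouts against 5xFAD at 8 months held in every alternative, 7 in 5xFAD against WT at 4 months, only Cyp51 in each of the TREM2 and double knockout comparisons at 4 months, and 0 in TREM2 knockouts against WT at 8 months. The cause of the changes below was not tested. In 5xFAD against WT at 4 months the count was 8 with a filter at an RPKM of 5, which tests fewer genes. CD33 knockouts against 5xFAD at 4 months had 1 call with a pseudocount of 1 and 1 with voom, and 3 with the title code. TREM2 knockouts against 5xFAD at 4 months had 8 with median-ratio scaling, 9 with the endothelial covariate and 1 with only the compared groups. Double knockouts against 5xFAD had 1 with the title code, 7 with the endothelial covariate, 1 with only the compared groups and 1 without the library that held Cd33; against CD33 knockouts they had 3 with the filter at 5, 2 with the title code, 2 with the oligodendrocyte covariate, 2 with only the compared groups and 1 without that library. With the endothelial covariate, 5xFAD against WT at 8 months had 12 and TREM2 knockouts against WT had 2; there Lbr turned to -0.34 (adjusted p = 0.0231) and Ebp to 0.03 (adjusted p = 0.886, both by limma). Median-ratio scaling moved the median of all genes by at most 0.015.

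Leaving out each library in turn gave 12 to 14 calls in 5xFAD against WT at 4 months and 18 to 20 at 8 months; 0 to 2 and 0 to 1 in CD33 knockouts at 4 and 8 months; 2 to 8 and 12 to 15 in TREM2 knockouts against 5xFAD; 0 to 0 and 9 to 11 against WT; and 1 to 5 and 1 to 7 in double knockouts against 5xFAD and CD33 knockouts. At 4 months TREM2 knockouts against 5xFAD had 3, 2 and 3 without TREM2 knockout replicates 3, 7 and 9, and 8 and 3 without 5xFAD replicates 13 and 6. CD33 knockouts had 2 without replicate 4 and 1 without 5xFAD replicate 1 at 4 months, and 1 without replicate 4 at 8 months. Among all genes, such fits called 22 to 2346 in CD33 knockouts at 4 months (638 with all libraries) and 188 to 562 at 8 months (374). In TREM2 knockouts against 5xFAD at 4 months they called 158 to 433 (311 with all libraries). Without libraries whose titles carry 2 numbers, a choice made after seeing the data, the 8-month counts were 19, 13 and 10.

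Replicate numbers did not pair the libraries: no comparison had every correlation of same-numbered libraries over 0.1 (1 of 5 pairs in 5xFAD against WT at 4 months, 6 of 8 in TREM2 knockouts against 5xFAD at 8 months, where 2 of 8 correlated best with their own number). With the replicate block the counts were 8 in 5xFAD against WT, 3 in TREM2 knockouts against 5xFAD and 3 in double against CD33 knockouts at 4 months. Depth limits Idi1, with 0 to 34 reads per library, and the lowest tested members.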

Other observations

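RPKM is per gene length, so members are ordered here by RPKM, with no correction for the exon overlaps named above. In WT at 8 months the medians were highest for Acly (45.8 RPKM), Mbtps1 (37.42), Ebp (24.67), Scap (23.25) and Soat1 (17.11), followed by Srebf2 (15.15), Lbr (14.07) and Insig1 (14.06). Lbr and Insig1 overlap in their ranges, as do Ebp and Scap. The synthesis enzymes that rose in 5xFAD lay below these, from Hmgcs1 (8.295), Dhcr7 (7.294) and Pmvk (6.235) down to Sqle (1.126) and Hsd17b7 (0.623), and Idi1 was lowest (0.05802).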
